A study of Homo sapiens with 18 samples.

Results

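TP73, a member of the p53 family, and 8 genes known as targets of p53 were followed through HEK293T cells with and without a knockout of UBR7. The 9 genes, taken by symbol from the deposited RNA table, are TP73, CDKN1A, MDM2, BAX, CCNG1, AEN, DDB2, EDA2R and SESN1, of 14177 genes in the table. All 9 were among the 13697 genes that passed the filter on low values, more than 1 CPM (reads of a gene scaled to a common library total) in at least 3 libraries. UBR7, which the title of the series calls a histone H3 chaperone, was knocked out by CRISPR-Cas9, and the cells so made are called UBR7KO. RNA was sequenced from 3 UBR7KO libraries, 2 of the line labelled KO1 (KO1-1 and KO1-2) and 1 of the line labelled KO2 (KO2-1), and from 3 libraries of parental cells with no edit. Open chromatin was read by ATAC-seq, which marks DNA that a transposase can reach, in 2 UBR7KO and 2 parental libraries. A ChIP-seq peak list gave the sites of GFP-UBR7 in HEK293T cells with GFP joined to the endogenous UBR7 protein. The labels do not state whether a knockout line is 1 clone, nor whether replicates are separate cultures, so p-values measure the spread between these libraries, which may be technical.

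The tumour suppressor p53 is a transcription factor that binds DNA in response to damage and other stresses and switches on genes for arrest of the cell cycle, cell death and DNA repair. Its paralogs p63 and p73 recognise similar sites. MDM2 is both a target of p53 and the ubiquitin ligase that sends p53 to degradation, which closes a feedback loop. HEK293T, an established line from human embryonic kidney, makes the large T antigen of simian virus 40, which binds p53 and blunts its activity. All groups share this background, and no group was treated with a damaging agent according to the labels.

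The RNA libraries held 25487348 to 29811908 reads in UBR7KO and 22153291 to 29141652 reads in parental cells. Date codes in the labels pair KO1-1 with parental 1 and KO1-2 with parental 2. KO2-1 and parental 3 have no date in their labels, which do not say that they belong together, and are treated here as the undated pair. Every gene of the table had at least 9 reads in parental 1, where the lowest count of a gene in each other library was 0 or 1, so the table may have been filtered on parental 1, and the part of this in the results was not tested. UBR7 itself stood at 27.0 and 26.3 CPM in KO1-1 and KO1-2 and 64.5 CPM in KO2-1, against 55.0, 62.2 and 62.2 CPM in parental 1, 2 and 3. The RNA of the targeted gene was thus at the parental level in the library labelled KO2, and permuting the 6 values over the groups gave an exact two-sided p = 0.4, where 0.1 is the smallest p possible. UBR7 overlaps C14orf142 on the other strand, and RNA does not report the level of protein. Directions drawn from the library labelled KO2 rest on its label. Of the cell type markers, all 6 HEK293T and epithelial genes were in the table, with summed levels of 772 to 1064 CPM in UBR7KO and 709 to 1013 CPM in parental libraries. Most of each sum was VIM (vimentin), at 487 to 830 CPM, while KRT8 reached at most 21.5 CPM and PAX2 at most 1.92 CPM. None of the 4 keratinocyte markers was in the table, TP63 included, and of 5 blood markers only LYZ was, at no more than 1.61 CPM. Of 5 fibroblast markers COL1A1, COL3A1 and LUM were in the table, with sums of 15.0, 12.9 and 7.35 CPM in KO1-1, KO1-2 and KO2-1, against 14.2, 15.6 and 21.3 CPM in parental 1, 2 and 3. The fibroblast sum was thus higher in KO1-1 than in its partner and lower in KO1-2 and KO2-1 than in theirs. These are bulk libraries, in which fewer cells of a type and less RNA per cell cannot be told apart.

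**Figure D1:**
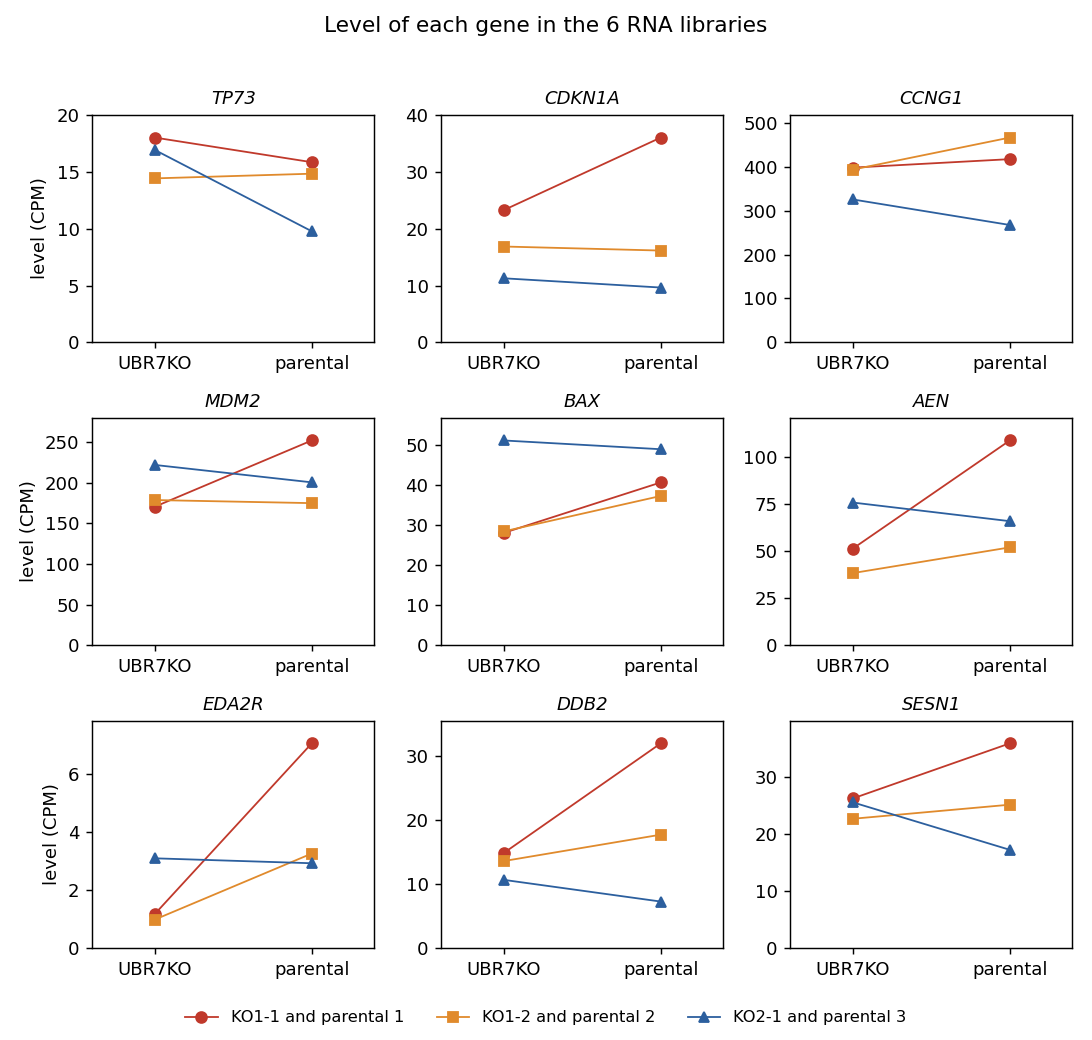
Level of each gene in CPM in the 3 UBR7KO libraries (left) and the 3 parental libraries (right), with a line joining the libraries of a pair and each vertical axis starting at 0. Parental 1 held the highest value of 6 of the 9 genes, and every blue line of the undated pair runs downward from KO2-1 to parental 3.

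Within the family, TP73, which codes for p73, stood at 18.0, 14.4 and 16.9 CPM in KO1-1, KO1-2 and KO2-1, against 15.9, 14.9 and 9.78 CPM in parental 1, 2 and 3. Its groups overlapped, and parental 3 was the lowest of the 6 libraries. TP73 lies on the plus strand of chromosome 1 at 3569084 to 3652765 (GRCh37-type coordinates, as in the table) and overlaps WRAP73 and TP73-AS1 on the other strand. MDM2 likewise overlaps CPM, a gene for a carboxypeptidase. Strand use in the counting is not given in the sources used here, so reads of these overlapping genes cannot be told apart.

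Of the genes for arrest of the cell cycle, CDKN1A, which codes for the cyclin-dependent kinase inhibitor p21 (ENSG00000124762, chromosome 6, 36644305 to 36655116), stood at 23.3, 16.9 and 11.3 CPM in UBR7KO, against 36.1, 16.2 and 9.64 CPM in parental libraries. Both groups had the same order of pairs, with the date of KO1-1 and parental 1 highest and the undated pair lowest. CCNG1, the gene of cyclin G1, which recruits a phosphatase to MDM2 (ENSG00000113328, chromosome 5, 162864575 to 162873157), stood at 398, 394 and 326 CPM in UBR7KO, against 418, 467 and 267 CPM in parental libraries. The lowest value of CCNG1 in each group was again that of the undated pair. MDM2 (ENSG00000135679, chromosome 12, 69201956 to 69239214) stood at 170, 178 and 222 CPM in UBR7KO and at 252, 175 and 200 CPM in parental libraries. Parental 1 stood apart for MDM2, and the other 5 libraries lay between 170 and 222 CPM.

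Among the genes of cell death, BAX, whose protein opens the outer membrane of mitochondria (ENSG00000087088, chromosome 19, 49458072 to 49465055), stood at 28.1, 28.4 and 51.2 CPM in UBR7KO, against 40.7, 37.3 and 49.0 CPM in parental libraries. Both KO1 libraries lay below every parental library and KO2-1 lay above them. AEN, an apoptosis-enhancing nuclease (ENSG00000181026, chromosome 15, 89164527 to 89175513), stood at 51.5, 38.4 and 76.0 CPM in UBR7KO, against 109, 52.1 and 66.1 CPM in parental libraries. EDA2R, a receptor of the tumour necrosis factor receptor family that binds ectodysplasin A2 (ENSG00000131080, chromosome X, 65815479 to 65859108), stood at 1.17, 0.981 and 3.09 CPM in UBR7KO, against 7.04, 3.25 and 2.92 CPM in parental libraries. These EDA2R values are 31, 25 and 92 reads in UBR7KO and 193, 72 and 85 reads in parental libraries. Both KO1 libraries lay below every parental library for AEN and EDA2R too.

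Of the genes for DNA repair and the stress response, DDB2, the damage recognition subunit that starts repair of ultraviolet lesions (ENSG00000134574, chromosome 11, 47236493 to 47260767), stood at 14.9, 13.6 and 10.7 CPM in UBR7KO, against 32.0, 17.7 and 7.27 CPM in parental libraries. SESN1, whose product sestrin 1 restrains mTOR complex signalling (ENSG00000080546, chromosome 6, 109307640 to 109416022), stood at 26.3, 22.7 and 25.6 CPM in UBR7KO, against 36.0, 25.2 and 17.3 CPM in parental libraries. The parental values of SESN1 and DDB2 spanned a wider range than the UBR7KO values and enclosed them. Parental 1 was the highest of the 6 libraries for CDKN1A, MDM2, AEN, DDB2, EDA2R and SESN1, 6 of the 9 genes, against 28.3% of all tested genes.

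The comparison of all UBR7KO with all parental libraries asks whether the RNA of these genes depends on UBR7. No gene among the 9 passed limma with a Benjamini-Hochberg adjusted p under 0.05 over all tested genes, and 0% of all tested genes passed in either direction. Before adjustment, 23 of all tested genes were higher with a p under 0.05 and 47 were lower, and the quasi-likelihood test of edgeR on recovered reads also called 0 genes, whereas DESeq2 called 1 higher and 6 lower over all genes and 0 of the 9. EDA2R had the lowest p of the 9 genes before adjustment. It had a mean of 1.75 ± 1.16 CPM over the UBR7KO libraries and of 4.40 ± 2.29 CPM over the parental ones (SD, n = 3 libraries of each), a log2 difference of −0.98 (SE 0.40). The limma p of EDA2R was 0.0358 and its adjusted p was 1.00. The mean of AEN was 55.3 ± 19.1 CPM in UBR7KO against 75.7 ± 29.7 CPM in parental libraries (SD, n = 3 libraries of each), a log2 difference of −0.43 (SE 0.33) that was −0.14 without parental 1 and −0.69 without KO2-1. The other log2 differences ran from −0.31 for DDB2 to 0.29 for TP73. None of the 9 genes had groups that did not overlap over the 6 libraries, against 1.23% of tested genes that were lower without overlap and 1.25% that were higher. The authors' deposited table gave EDA2R a log2 fold change of −1.25 with p = 0.0280, and adjusted p-values of 1.00 for all 9 genes. With the pair as a block, 0 of the 9 passed as well, where 473 tested genes were higher and 282 were lower with a p under 0.05 before adjustment.

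**Figure D2:**
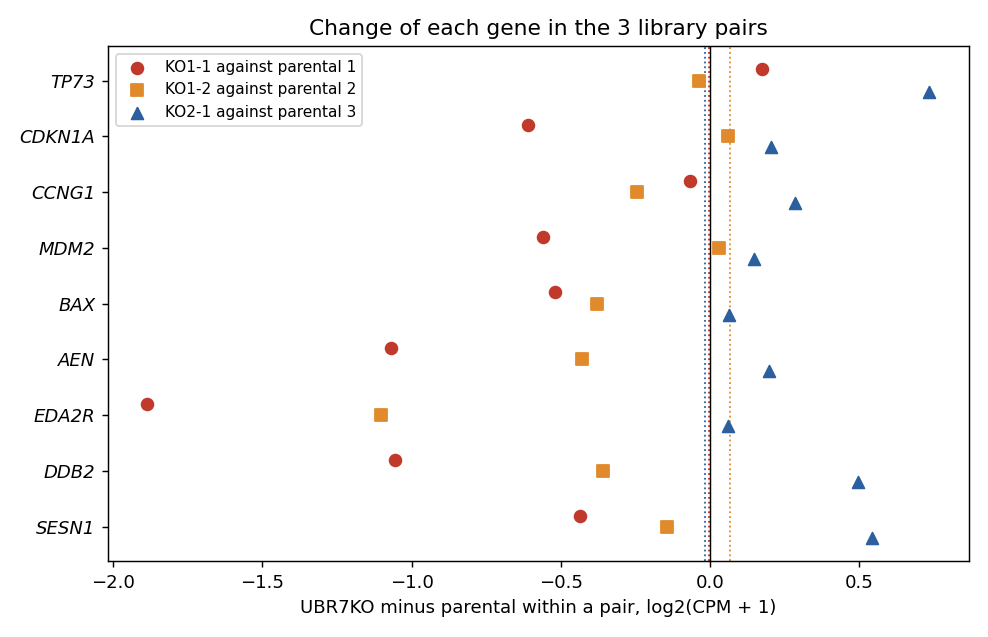
Change of each gene within the 3 pairs, UBR7KO minus parental on the log2(CPM + 1) scale, with dotted lines at the median of all tested genes in the same pair. Circles and squares (KO1) lie left of 0 for CCNG1, BAX, AEN, EDA2R, DDB2 and SESN1, and all triangles (KO2) lie right of 0.

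The sign of the difference was also counted within each pair. In KO1-1 against parental 1, 8 of the 9 were lower and TP73 was higher, where 50.3% of tested genes were lower and 49.7% higher. In KO1-2 against parental 2, 7 of the 9 were lower and 2 higher, where 37.5% of tested genes were lower and 62.5% higher. In KO2-1 against parental 3 all 9 were higher, where 47.2% of tested genes were higher and 52.8% lower. The median log2 difference of the 9 genes was −0.56, −0.24 and 0.21 in these pairs, beside 0.00, 0.07 and −0.02 over all tested genes. BAX, CCNG1, AEN, DDB2, EDA2R and SESN1, 6 of the 9, were lower in both dated pairs (24.4% of tested genes), and all 6 were higher in the undated pair, as were 13% of tested genes. CDKN1A and MDM2 differed in the first dated pair by −0.61 and −0.56, but in the second by 0.06 and 0.03. TP73 differed by 0.17 and −0.04 in the dated pairs and by 0.73 in the undated pair.

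KO1 was compared with the parental libraries of the same dates to read 1 line against cells of its own dates. Without regard to the pairs, limma called none of the 9 genes and 0% of all tested genes, where 116 genes were higher and 102 were lower with a p under 0.05 before adjustment. The quasi-likelihood test of edgeR also called 0 genes and DESeq2 called 4 higher and 20 lower over all genes, EDA2R among them. With the pair as a block, limma called 3 of the 9 genes, all lower in KO1, beside 1.36% of tested genes lower and 2.23% higher. This blocked fit leaves 1 residual degree of freedom, and limma draws the spread of each gene towards that of all tested genes. The SE and p-values of the blocked fit rest in part on that shared spread. EDA2R, with a mean of 1.08 ± 0.137 CPM in KO1 against 5.14 ± 2.68 CPM in parental 1 and 2 (SD, n = 2 libraries of each), fell by 1.49 on the log2(CPM + 1) scale (SE 0.22, limma adjusted p = 0.000326 with the block). AEN, with 44.9 ± 9.25 CPM in KO1 against 80.6 ± 40.3 CPM in parental 1 and 2 (SD, n = 2 libraries of each), fell by 0.75 (SE 0.14, limma adjusted p = 0.00499 with the block). DDB2, with 14.3 ± 0.901 CPM in KO1 against 24.9 ± 10.1 CPM in parental 1 and 2 (SD, n = 2 libraries of each), fell by 0.71 (SE 0.17, limma adjusted p = 0.0211 with the block). For all 3 genes the KO1 library lay below its partner in both pairs, but by more in the pair of parental 1. AEN differed by −1.07 there and −0.43 in the second pair, DDB2 by −1.06 and −0.36, and EDA2R by −1.89 and −1.10. With parental 1 left out, and no block, the log2 difference was −0.22 for AEN and −0.30 for DDB2, and with parental 2 left out −1.27 and −1.12. Of the markers of cell types, VIM, the gene of vimentin (log2 0.56, limma adjusted p = 0.0202 with the block), and LUM, the fibroblast gene of lumican (0.85, limma adjusted p = 0.0235 with the block), were higher in KO1, and their part in these results was not tested. The levels of LUM were low, at 1.63 and 2.28 CPM in KO1-1 and KO1-2 against 0.547 and 0.722 CPM in parental 1 and 2.

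The remaining genes did not pass with the block. BAX, the nearest, had 28.3 ± 0.263 CPM in KO1 against 39.0 ± 2.39 CPM in parental 1 and 2 (SD, n = 2 libraries of each), a log2 difference of −0.45 (SE 0.14, limma adjusted p = 0.0687 with the block). The quasi-likelihood test of edgeR with the block called BAX as well (log2 −0.50, adjusted p = 0.0416), and over all genes it called 249 higher and 262 lower, where limma called 305 higher and 186 lower. DESeq2 with the block called AEN and EDA2R alone among the 9, and 72 higher and 99 lower over all genes. The pseudocount of 1 shrank the change of EDA2R, whose log2 difference on reads was −2.23 in the quasi-likelihood fit. BAX, CCNG1, AEN, DDB2 and EDA2R, 5 of the 9, were lower in KO1 with no overlap between the 4 libraries, against 9.01% of tested genes, and none was higher without overlap, against 14.5%. The 3 called genes lie on chromosomes 11, 15 and X. Other tested genes in the same 10 Mb stretch as EDA2R had median log2 differences of 0.14 and 0.11 in the 2 dated pairs, those around AEN −0.01 and 0.09, and those around DDB2 0.11 and 0.10. All tested genes had medians of −0.003 and 0.07 in these pairs. The part of the surrounding genes in the 3 falls was not tested.

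The difference between lines was tested directly, as the change within the KO2 pair minus the mean change within the KO1 pairs. This test holds a single library of KO2 with a single parental partner and leaves 1 residual degree of freedom. The own spread of a gene thus comes from the 2 KO1 pairs alone, and limma draws it towards that of all tested genes. The undated pair is assumed to vary like the KO1 pairs. The line and the undated pair cannot be told apart in this test. EDA2R (difference 1.55, SE 0.39, limma adjusted p = 0.0169), DDB2 (1.2, SE 0.30, limma adjusted p = 0.0189) and AEN (0.95, SE 0.24, limma adjusted p = 0.0229) passed on that assumption, 3 of the 9 genes, beside 1.71% of tested genes higher and 3.32% lower. The quasi-likelihood fit gave 327 higher and 417 lower over all genes, where limma gave 234 and 455. SESN1 had a difference of 0.83 (SE 0.25, limma adjusted p = 0.0523), and passed with a pseudocount of 0.1, with no filter on low values, with TMM scaling and in the quasi-likelihood fit. TP73 (0.67), BAX (0.51), CDKN1A (0.48), CCNG1 (0.44) and MDM2 (0.41) had differences of the same sign that did not pass. UBR7 had a difference of 1.15 (SE 0.22, limma adjusted p = 0.00176). Set against the pair of KO1-1 or that of KO1-2 alone, which leaves values with no test, the difference was 1.95 or 1.16 for EDA2R, 1.55 or 0.854 for DDB2 and 1.27 or 0.629 for AEN. Of the markers of cell types, COL3A1 (−2.69), LUM (−1.87), KRT8 (−1.82), NEFM (−1.26) and VIM (−1.04) passed downward and CDH2 (0.912) upward in the same test. COL3A1 and LUM were low in KO2-1, at 0.805 and 0.570 CPM, against 8.06 and 2.20 CPM in parental 3. The part of these markers in the differences of EDA2R, DDB2 and AEN was not tested.

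The undated pair was also set against the dated pairs with genotype as a covariate, to show how the genes vary between the pairs, each of which holds both genotypes. The undated pair also holds the other knockout line, and no label says what else sets it apart. CDKN1A was lower in the undated pair, at 11.3 and 9.64 CPM against 16.2 to 36.1 CPM in the dated libraries (log2 difference −1.0, SE 0.19, limma adjusted p = 0.00545). DDB2 (−0.99, SE 0.30, limma adjusted p = 0.0416) and CCNG1 (−0.50, SE 0.13, limma adjusted p = 0.0199) were lower as well, and BAX was higher (0.58, SE 0.15, limma adjusted p = 0.0174). These are 1 higher and 3 lower of the 9 genes, beside 10.7% of tested genes higher and 24.3% lower. The median log2 difference of all tested genes was −0.16 here and 0.01 with TMM scaling, which counted 2615 genes higher and 2141 lower in place of 1472 and 3332. With TMM scaling and in the quasi-likelihood fit BAX and CDKN1A passed and DDB2 and CCNG1 did not. The mitochondrial rRNAs took 26.3% and 24.7% of reads in the undated pair and 15.8% to 21.1% in the dated libraries, and their part in these differences was not tested. CDKN1A passed whichever library was left out. With it passed CCNG1 alone without KO1-2 and BAX alone without parental 1, and no other of the 9 genes passed without parental 2. Without KO2-1 the log2 differences of BAX and DDB2 were 0.32 and −1.59, and without parental 3 those of CCNG1 and DDB2 were −0.28 and −0.39.

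**Figure D3:**
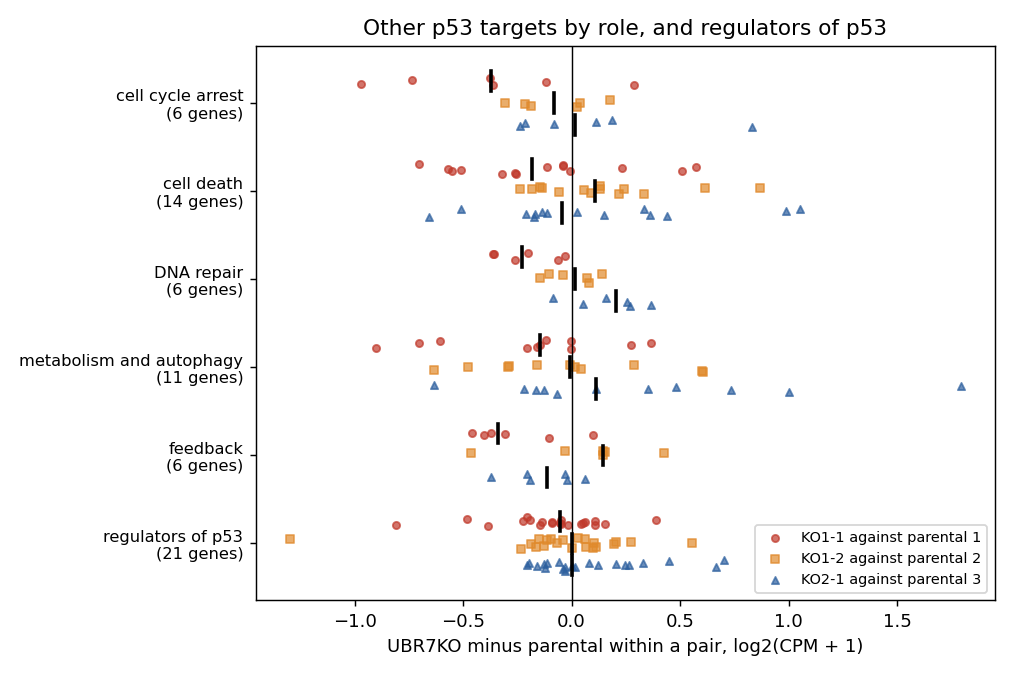
Change within each pair, UBR7KO minus parental on the log2(CPM + 1) scale, of 43 other p53 targets grouped by role and of 21 regulators of p53. Each point is a gene and each black bar the median of a list in a pair, with the pair of KO1-1 left of 0 in the medians of all 6 lists.

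Beyond the 9 genes, 43 other known p53 targets passed the filter. They were lower in 36 of 43 cases in KO1-1 against parental 1, a median log2 difference of −0.21, against 50.3% of all tested genes. In KO1-2 against parental 2, 19 of the 43 were lower, with a median of 0.04, against 37.5% of all tested genes. In KO2-1 against parental 3, 21 of the 43 were lower, with a median of 0.03, against 52.8% of all tested genes. No target of this list passed over all 6 libraries. In KO1 against parental cells of the same dates with the block, 1 passed, which was ACER2, an alkaline ceramidase. ACER2 stood at 1.86 and 3.22 CPM in KO1-1 and KO1-2, against 4.34 and 5.55 CPM in parental 1 and 2 (log2 −0.77, SE 0.21, limma adjusted p = 0.0369), or −0.49 without KO1-1 and with no block. None of the 6 arrest genes, 14 death genes, 6 repair genes or 6 feedback genes passed in that comparison.

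Between the lines, 4 of the 43 targets differed upward in KO2, where 1.71% of all tested genes did, and 1 differed downward, where 3.32% did. GLS2, a mitochondrial glutaminase, stood at 3.66 CPM in KO2-1 against 0.343 CPM in parental 3, while KO1-1 and KO1-2 held 4.47 and 3.06 CPM against 4.49 and 2.93 CPM in parental 1 and 2. Its level was thus close in the dated pairs, and the difference between the lines was 1.77 (SE 0.36, limma adjusted p = 0.00302), with parental 3 the low library. CYFIP2, a partner of the fragile X protein, stood at 91.9 CPM in KO2-1 against 45.3 CPM in parental 3, and at 83.1 CPM in KO1-1 and 66.0 CPM in KO1-2, below the 90.1 CPM of parental 1 and 81.0 CPM of parental 2 (difference 1.21, SE 0.21, limma adjusted p = 0.000526). ACER2 (1.51) and TP53INP1, which takes part in autophagy and cell death (1.10), passed in the same direction, and TP53I13 (−1.12) in the other. The 67 other tested genes between 20 and 30 Mb of chromosome 17, around TP53I13, had medians of −0.51 in the undated pair and 0.18 and 0.14 in the dated pairs, and their part in its difference was not tested. GLS2, CYFIP2, TP53INP1 and TP53I13 each overlap a gene on the other strand.

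Against the dated pairs, 2 of the 43 targets were higher and 14 lower in the undated pair, beside 10.7% of all tested genes higher and 24.3% lower. TMM scaling turned this to 3 higher and 7 lower, beside 19.1% higher and 15.6% lower over all tested genes, so the share of lower targets was then near that of all genes. GADD45A, a stress sensor that slows the cycle, stood at 11.6 and 12.3 CPM in KO2-1 and parental 3, against 24.7, 29.7, 49.4 and 33.9 CPM in KO1-1, KO1-2, parental 1 and parental 2 (log2 −1.41, SE 0.19, limma adjusted p = 0.00215). PMAIP1, which codes for the death protein NOXA, stood at 69.3 and 78.2 CPM in the undated pair, against 155, 155, 228 and 141 CPM in the dated libraries (log2 −1.17, SE 0.15, limma adjusted p = 0.00174). SESN2, a sestrin like SESN1, also stood lower (−1.03), as did APAF1, the core of the apoptosome (−0.71), and the repair genes REV3L (−0.64), POLH (−0.57) and XPC (−0.42). SCO2, an assembly factor of cytochrome c oxidase, stood higher (0.92), as did C12orf5, the TIGAR gene (0.55). Of the genes named here, POLH and XPC did not pass with TMM scaling, and the others passed in the same direction. GADD45A, PMAIP1, SESN2, APAF1 and SCO2 passed whichever library was left out, while REV3L did not pass without KO1-2. POLH did not pass without KO1-2, parental 1, parental 2 or parental 3, each left out in turn. C12orf5 did not pass without KO1-1, KO1-2, KO2-1 or parental 2. XPC did not pass whichever library other than KO2-1 was left out.

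Of 21 regulators of p53 tested, 1 passed in KO1 against parental cells of the same dates with the block. CDKN2A, whose ARF product holds MDM2 away from p53 and whose other product is the inhibitor p16, stood at 44.3 and 57.6 CPM in KO1-1 and KO1-2 against 78.4 and 143 CPM in parental 1 and 2 (log2 −1.05, SE 0.13, limma adjusted p = 3.44e-05, and −0.62 without parental 2 and with no block). In the undated pair it stood at 183 CPM in KO2-1 against 112 CPM in parental 3, and the difference between the lines was 1.75 (SE 0.22, limma adjusted p = 1.44e-05). CDKN2A overlaps CDKN2B-AS1 on the other strand, and the table does not part its 2 products. The 14 other tested genes between 20 and 30 Mb of chromosome 9 moved with it, at medians of −0.80 and −0.63 in the dated pairs and 0.32 in the undated pair. Their part in the result was not tested. ACER2 lies on the same chromosome arm, where the 18 other tested genes between 10 and 20 Mb had medians of −0.27, −0.15 and −0.03 in the same pairs. Against the dated pairs 1 regulator was higher and 6 were lower in the undated pair, or 4 higher and 4 lower of the 21 with TMM scaling, beside 10.7% and 24.3%, or 19.1% and 15.6%, of all tested genes. MDM4, the partner of MDM2 that masks p53, stood at 47.0 and 40.6 CPM in KO2-1 and parental 3, against 127, 102, 148 and 69.1 CPM in KO1-1, KO1-2, parental 1 and parental 2 (log2 −1.28, SE 0.16, limma adjusted p = 0.00170). USP7, which removes ubiquitin from MDM2 and p53, was higher in the undated pair (0.52, limma adjusted p = 0.00860), and both passed with TMM scaling. MDM4 passed whichever library was left out, while USP7 did not pass without KO1-2 or without parental 2.

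The genes most like CDKN1A across the 6 libraries, by Pearson correlation of log2(CPM + 1), were AC133528.2 and DICER1-AS1 (r = 0.999 each) and TSC22D3, a glucocorticoid-induced gene (r = 0.999). TSC22D3 stood at 476, 319 and 200 CPM in KO1-1, KO1-2 and KO2-1, against 793, 303 and 153 CPM in parental 1, 2 and 3, the order of libraries that CDKN1A had. Those most like TP73 were ABCA3 (r = 0.988), VPS52 (r = 0.985) and KIF1A (r = 0.983). The points of each correlation are the same 6 libraries and fall into the same pairs, and 13696 genes were compared, so r is a description.

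Promoter sequences are shown for the genes whose windows held a searched motif, and no link of a motif to the fall in KO1 was tested. The windows ran from 250 bases before to 50 after each RefSeq transcript start (GRCh38.p14), and 19 windows covered all 9 genes. The p53 consensus decamer, the half-site that p53 binds in pairs, was searched on both strands and lay in 3 of the 19 windows, 1 each of AEN, DDB2 and SESN1, against 6.65% of 34794 promoter windows. The 9 genes were chosen as family or targets of p53, so this share is a description. The window of DDB2 held 2 decamers, as did 0.310% of promoters with 2 or more. Capitals mark the decamers in AEN (chr15:88621090-88621339, plus strand), DDB2 (chr11:47214975-47215004, plus strand) and SESN1 (chr6:109008989-109009238, minus strand), each written 5′ to 3′ along its gene.
AEN: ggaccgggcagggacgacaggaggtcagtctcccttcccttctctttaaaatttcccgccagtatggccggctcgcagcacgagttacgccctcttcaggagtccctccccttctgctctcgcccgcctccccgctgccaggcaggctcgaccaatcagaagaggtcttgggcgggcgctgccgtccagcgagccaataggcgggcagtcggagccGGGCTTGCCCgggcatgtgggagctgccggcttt
DDB2: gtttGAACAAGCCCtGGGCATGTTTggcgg
SESN1: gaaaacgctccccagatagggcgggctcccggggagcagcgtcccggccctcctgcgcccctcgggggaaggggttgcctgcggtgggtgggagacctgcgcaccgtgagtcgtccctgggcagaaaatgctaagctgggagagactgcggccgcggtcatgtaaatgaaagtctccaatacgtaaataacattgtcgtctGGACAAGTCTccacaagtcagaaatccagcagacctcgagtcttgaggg
The decamers of DDB2 begin 5 and 16 bases after the transcript start and that of AEN begins 34 bases before it. No decamer lay in the windows of EDA2R, CDKN1A, BAX or MDM2, which says only that these letters are not in those windows.

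A second motif, TTTNGCGC, the core that E2F factors bind, was searched on both strands and lay in 3 of the 19 windows, against 1.78% of promoter windows. These windows belong to 2 of the 9 genes, TP73 and MDM2. The matching windows of MDM2 overlap and hold the same site, which was counted once for each window. E2F1 is known to switch on TP73. Capitals mark the match on the other strand in TP73 (chr1:3652266-3652515, plus strand) and MDM2 (chr12:68807922-68808171, plus strand), GRCh38.p14.
TP73: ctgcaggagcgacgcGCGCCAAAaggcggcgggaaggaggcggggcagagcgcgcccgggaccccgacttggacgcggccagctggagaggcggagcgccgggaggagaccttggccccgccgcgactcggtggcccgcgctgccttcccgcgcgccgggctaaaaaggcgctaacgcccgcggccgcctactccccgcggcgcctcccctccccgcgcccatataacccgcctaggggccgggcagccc
MDM2: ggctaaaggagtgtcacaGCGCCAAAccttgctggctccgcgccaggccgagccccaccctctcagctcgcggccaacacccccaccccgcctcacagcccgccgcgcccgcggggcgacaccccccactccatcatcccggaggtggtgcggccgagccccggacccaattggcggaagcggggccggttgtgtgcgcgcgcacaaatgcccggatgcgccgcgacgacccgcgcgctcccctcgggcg
A match is a description of letters and not a bound site.

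**Figure D4:**
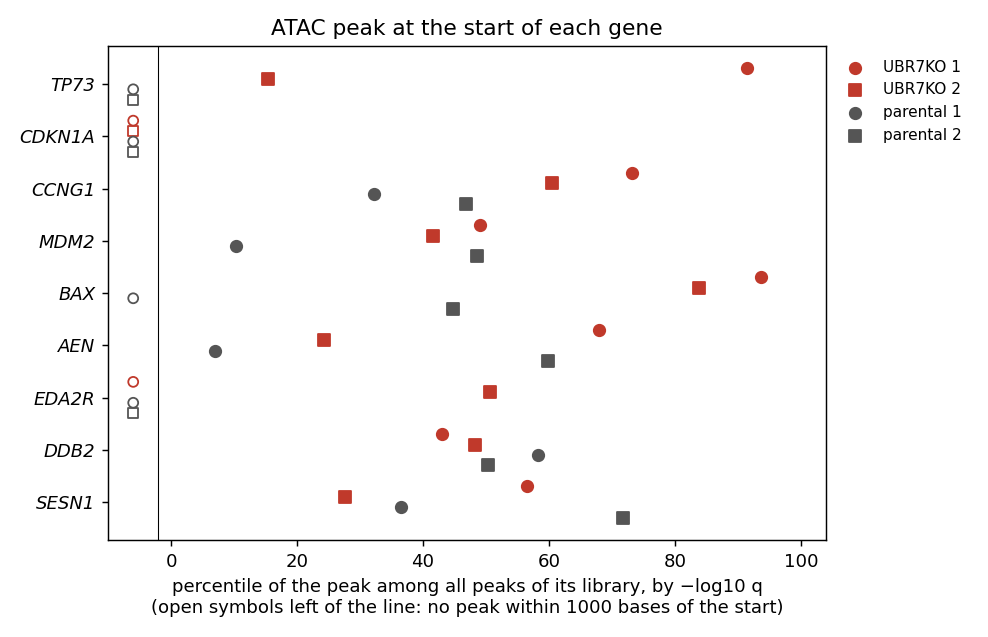
Percentile of the ATAC peak at each gene start among all peaks of its library, ranked by −log10 q, in the 2 UBR7KO and 2 parental libraries. Open symbols mark libraries with no peak within 1000 bases of the start, as in both parental libraries for TP73 and in all 4 for CDKN1A.

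Open chromatin at the starts was read from the peaks that the authors called in each library, 15310 and 45920 in UBR7KO 1 and 2 against 10507 and 38529 in parental 1 and 2. A code in the labels of both UBR7KO ATAC libraries is that of KO2-1, so the use of line KO2 was inferred and is not stated. Peaks within 1000 bases of the start stood in all 4 libraries for MDM2, CCNG1, AEN, DDB2 and SESN1, 5 of the 9 genes, against 52.9% of tested genes. By library, 7 and 8 of the 9 had one in UBR7KO 1 and 2 (70.5% and 83.3% of tested genes), against 5 and 6 in parental 1 and 2 (55.5% and 80.8%). The median −log10 q of all peaks was 1.22 and 1.87 in UBR7KO 1 and 2, against 1.07 and 1.33 in parental 1 and 2. No test was run on these heights, since an exact permutation test of 2 against 2 libraries has a smallest two-sided p of 0.333, and fewer peaks were called in the parental library of each number.

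TP73 had a peak at its start in both UBR7KO libraries (−log10 q of 3.06 and 0.880) and in neither parental library, a pattern shown by 0.774% of tested genes, while 0.0584% had the reverse. The peak of TP73 in UBR7KO 1 was 755 bases wide and ranked above 91.5% of that library's peaks, but in UBR7KO 2 it was 117 bases wide and ranked above 15.5%. BAX had peaks of −log10 q 3.41 and 4.97 in UBR7KO, against none in parental 1 and 1.198 in parental 2. CCNG1 had peaks of 1.80 and 2.42 in UBR7KO, against 0.864 and 1.25 in parental libraries, and its UBR7KO values did not overlap the parental ones. With a missing peak counted below any peak, TP73, BAX and CCNG1, 3 of the 9 genes, were higher in UBR7KO without overlap, beside 20.1% of tested genes, and none was lower without overlap, beside 3.69%. MDM2, AEN, DDB2 and SESN1 overlapped between the groups. EDA2R had a peak of 1.89 in UBR7KO 2 and in none of the other 3 libraries. CDKN1A had none at the start given in the RNA table. At its RefSeq starts, 2151 and 2182 bases downstream, it had peaks of 0.825 and 0.804 in UBR7KO, against none in parental 1 and 3.09 in parental 2. In the authors' sets of regions shared by both replicates, the TP73 and BAX starts were in the UBR7KO set of 14517 regions and not in the parental set of 9933.

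GFP-UBR7 sites were compared to see whether UBR7 lies at these genes. Of 5895 peaks in the authors' list from 1 ChIP library, MDM2 alone among the 9 genes had peaks within 1000 bases of its start, against 24.9% of tested genes. A peak of 207 bases, chr12:69201838-69202044, lay over the MDM2 start and ranked above 33.4% of the peaks by score. A second lay 968 bases away and ranked above 1.68%. The nearest peaks to BAX, TP73 and CDKN1A lay 9.13, 27.2 and 29.1 kb from their starts, and that of DDB2 33.8 kb.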

How the data were processed

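RNA values were deposited as CPM per library, scaled by the authors, for 14177 genes. Per the submitters' processing notes the tools included HTSeq 0.6.1, TopHat2 2.1.0, MACS2, Bowtie2 2.3.1 and edgeR, and the builds hg38 and hg19, with no roles given. In each library 100% of values were whole reads times 1 fixed step (tolerance 0.001), so reads were recovered for edgeR and DESeq2, run as alternatives. Per the file headers, the authors' table gives log2 fold changes, log2 CPM, a likelihood ratio statistic and p-values, and the design behind them is not stated. The deposited ATAC peaks carry the authors' −log10 q and a score, the merged sets a summed score, and the GFP-UBR7 list a score of no stated scale.

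Fits were made in R 4.3.3 (DESeq2 1.42.0, edgeR 4.0.16, limma 3.58.1). Tables and figures were made in Python 3.11.15 (pandas 2.3.3, matplotlib 3.10.9). Because CPM are not counts, limma (intensity trend, robust) was fitted to log2(CPM + 1) of 13697 genes, with Benjamini-Hochberg adjustment over all of them, and tested on simulated data. The date codes in the labels pair the libraries of KO1. Deviations from group means correlated at 0.758 and 0.736 within those pairs and 0.633 in the undated pair (a value largely fixed by the others, since groups were centred on their own means), against −0.443 to −0.251 in other pairings, and the chi-square of reads per degree of freedom between libraries was 33.7 to 327, so none was a repeat of another. Levels were not compared between genes, since the table's width column did not give gene lengths. Genes named were the 9 members, TP63 and UBR7, up to 3 called genes per list and direction, and the 3 most correlated with CDKN1A and with TP73. The members and lists were chosen with earlier results of these data known. The blocks with edgeR and DESeq2 and the RefSeq starts were added after the data were seen. The 6 CUT&RUN samples were not analysed here. A further item of the naming rule is not reported here.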

Additional observations from a re-analysis of the deposited data

Results flagged for a closer look

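The genes looked at were the 9 genes, UBR7, the 43 other targets and the 21 regulators. The markers tested, 6 of HEK293T and epithelial cells and 3 of fibroblasts, were looked at too. For 16 of all these the change within the KO2 pair differed from that within the KO1 pairs past the limma threshold. Over all tested genes, 234 passed upward (1.71%) and 455 downward (3.32%). Each value below is the difference, KO2 pair minus KO1 pairs, on the log2(CPM + 1) scale. Among the p53 targets first followed it was 1.55 for EDA2R, 1.2 for DDB2 and 0.948 for AEN, which were lower in KO1 and near or above their partner in the undated pair. UBR7 had 1.15, and its RNA was low in the KO1 libraries only. The regulator CDKN2A had 1.75. Of the other targets, GLS2 had 1.77, ACER2 1.51, CYFIP2 1.21 and TP53INP1 1.10, and TP53I13 had −1.12. Of the markers, COL3A1 had −2.69, LUM −1.87, KRT8 −1.82, NEFM −1.26, VIM −1.04 and CDH2 0.912. Some levels were low, with GLS2 at 0.343 CPM in parental 3, and LUM at 0.570 CPM and COL3A1 at 0.805 CPM in KO2-1. Each of the 16 differences rests on 1 KO2 library and its 1 parental partner. The own spread of each gene comes from the 2 KO1 pairs alone, drawn by limma towards that of all tested genes. The line and the undated pair cannot be told apart.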

How the results depend on the processing

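With the date pair as a replicate block, the count of the 9 genes called in KO1 against parental cells of the same dates was 3 (0 without it). It was 1 with DESeq2 and no block, 4 with the block in the quasi-likelihood test and 2 with the block in DESeq2. The counts over all genes in these settings are given above. Leaving a library out of this comparison leaves 1 library in a group, so only log2 differences are given for it below. The block changed no call over all 6 libraries. For the undated against the dated pairs, 4 genes were called, 2 with TMM scaling and 2 in the quasi-likelihood test. The count was 1 to 3 as each dated library was left out, where 565 to 1052 tested genes were higher and 1305 to 2470 lower. Peaks with −log10 q of at least 5 stood at 0 starts in every ATAC library, and GFP-UBR7 peaks with a score above the median at 0 starts. The median −log10 q of all peaks was 1.07 to 1.87 in the 4 ATAC libraries. No share of all tested genes is given at these cut-offs, so these counts do not set the 9 genes apart. Over single genes 390 alternatives were compared, of which 335 left direction and call as they were, 22 gained a call, 15 lost one and 18 turned the sign. All 18 came from leaving out a library. Over all libraries such log2 differences ran from −0.53 to 0.37 for CDKN1A, −0.25 to 0.014 for MDM2, −0.25 to 0.15 for CCNG1, −0.84 to 0.16 for DDB2 and −0.27 to 0.24 for SESN1. In KO1 they ran from −0.083 to 0.22 for TP73 and −0.83 to 0.28 for CDKN1A. Between the undated and dated pairs they ran from −0.60 to 0.066 for TP73, −0.066 to 0.34 for MDM2, −0.19 to 0.76 for AEN, −0.58 to 0.98 for EDA2R and −0.77 to 0.064 for SESN1. With the sign kept, they ran over all libraries from −0.69 to −0.14 for AEN and −1.30 to −0.65 for EDA2R, and in KO1 from −1.27 to −0.22 for AEN, −1.12 to −0.30 for DDB2 and −1.95 to −1.03 for EDA2R. The cause was not tested. Leaving a library out of the comparison between lines takes its 1 residual degree of freedom, so only values against each dated pair alone were computed. The 2 to 3 libraries a group and the 25 to 193 reads of EDA2R limit these results.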
